A study of Mus musculus with 6 samples.

Results

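Genes of fatty acid oxidation and ketone metabolism were examined as a panel of 32 genes, written out by symbol and matched to rows of the deposited expression table, which listed 27546 genes in all. All 32 were in the table, and 31 had a mean of at least 0.5 FPKM (fragments scaled to transcript length and to the depth of the library) and were tested among 14657 genes. The gene below that level was Cpt1b. RNA-Seq had been performed on the distal colon of 3 Gm31629-/- mice and 3 littermate WT mice on the C57BL/6 strain. Each library was taken here as 1 mouse, although the methods describe pooled RNA. The Gm31629-/- mice carry a deletion at the Gm31629 long noncoding RNA locus on chromosome 1 in every cell, so no effect of a single cell type can be separated in them. Mice of both genotypes were 8 weeks old, drank 3% DSS (dextran sulfate sodium, which damages the lining of the colon) for 7 days, and were killed on the next day, so every value below comes from a DSS-treated colon. The level of Gm31629 itself was not analysed here.

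Fatty acids enter mitochondria as carnitine esters and are shortened in a spiral of 4 reactions, namely dehydrogenation by an acyl-CoA dehydrogenase specific for chain length, hydration, a second dehydrogenation, and thiolysis. Electrons leave the first reaction through the electron transfer flavoprotein. Peroxisomes run a parallel spiral for very long and branched chains. The acetyl-CoA produced can be turned into the ketone bodies acetoacetate and β-hydroxybutyrate, and the nuclear receptor PPARα switches on genes at every one of these steps. Colonocytes are known for oxidizing butyrate, a short-chain fatty acid made by the gut microbiota, as a main fuel.

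The libraries held 18002700 to 18792800 fragments each, so depth differed little between groups. Xist, which marks female cells, was at 8.35 to 13.8 FPKM in 5 libraries and at 0.006 in the library of Gm31629-/- mouse 1, and the Y-linked transcripts Ddx3y, Uty, Kdm5d, and Eif2s3y were above 0 in that library and listed at 0 in the others, whereas the methods describe male mice. The count of lower members over the whole panel is therefore given with and without Gm31629-/- mouse 1. Counts by step and in other lists rest on all mice. The tissue also differed in makeup between genotypes. The 15 epithelial markers summed to 12140 to 13180 FPKM in WT mice against 7361 to 8903 in Gm31629-/- mice, with 8 of 15 lower and 0 higher. These markers did not move together. Mean FPKM in WT against Gm31629-/- mice was 4198 against 2042 for Krt8 and 2068 against 1042 for Krt19. It was 1104 against 1109 for Epcam and 405 against 395 for Cdh1. Tspan8 averaged 171 against 241 but did not pass the test. The markers named here were picked after their values had been seen. The 12 smooth muscle markers summed to 26.0 to 46.6 FPKM in WT mice against 1342 to 2078 in Gm31629-/- mice, with all 12 higher. The WT libraries thus held little smooth muscle transcript, and the part of tissue makeup in the results below was not tested. In whole tissue, fewer cells of a type and less RNA per cell cannot be told apart. To show what each comparison is relative to, fold changes are given as deposited and after rescaling each library to the 15 epithelial markers.

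Of the 31 tested members, 15 were lower in Gm31629-/- mice and 0 were higher (limma on log2(FPKM + 1), p adjusted over all tested genes by Benjamini and Hochberg, threshold 0.05), whereas across all tested genes 14.6% were lower and 28.9% were higher. With the further condition of a log2 fold change below -1, the threshold used in the study, 8 members were lower, against 4.64% of all genes. At a log2 fold change above 1, 0 members were higher, against 18.4% of all genes. In 19 members all 3 Gm31629-/- mice lay below all 3 WT mice, and in 0 members did they all lie above, where 21.5% and 36.3% of all genes separated in those directions. The median log2 fold change was -0.58 over the tested members and 0.15 over all tested genes. Leaving out Gm31629-/- mouse 1 gave 15 lower members, of which 10 passed the fold threshold, where 13.5% of all genes were lower and 28.0% higher. After rescaling to the epithelial markers, 7 members were lower and 4 were higher (Acot2, Eci2, Slc25a20, and Acadl), where 3.56% of all genes were lower and 47.7% higher. The member median on that scale was 0.006, against 0.60 over all genes. The 7 genes lower on both scales were Acads, Hadh, Eci1, Ehhadh, Acaa1b, Bdh1, and Ppara. The counts by step below stand beside the same shares of all genes on each scale.

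**Figure D1:**
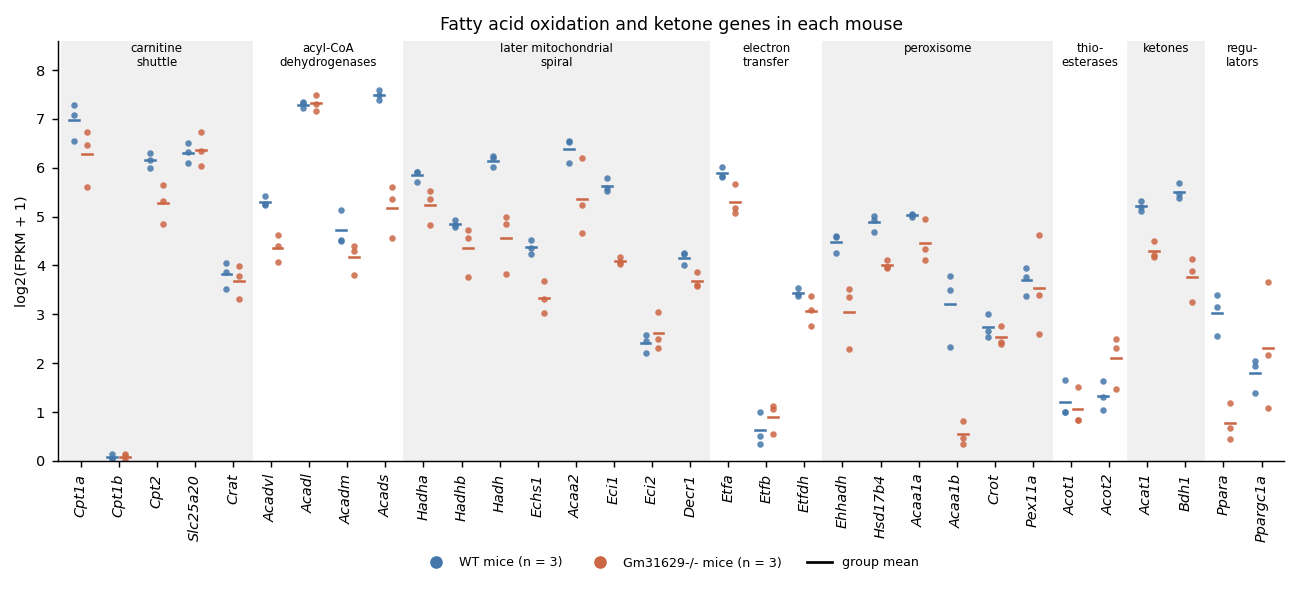
Level of each of the 32 members in each mouse, as log2(FPKM + 1), grouped by step of the pathway. Points are mice (blue, 3 WT; orange, 3 Gm31629-/-) and bars are group means. Acads, Hadh, Eci1, Ehhadh, Acaa1b, Bdh1, and Ppara separate widely, while Acadl and Slc25a20 overlap.

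The carnitine shuttle carries long-chain acyl groups across the inner mitochondrial membrane. Of its 4 tested genes, 1 was lower, and this call was lost after rescaling to the epithelial markers. Cpt1a, the rate-limiting outer-membrane carnitine palmitoyltransferase, was at 93.0, 155, and 134 FPKM in WT mice against 106, 47.8, and 87.8 FPKM in Gm31629-/- mice. The groups overlapped because Gm31629-/- mouse 1 lay above the lowest WT mouse, and the log2 fold change of -0.70 had a 95% interval of -1.46 to 0.07 (adjusted p = 0.121). Cpt1b, the muscle isoform, was at 0.032, 0.099, and 0.047 FPKM in WT mice against 0.064, 0.016, and 0.097 in Gm31629-/- mice. These levels rest on 1 to 6 fragments per library, so no fold change is given, and 81.4% of its exon bases are shared with Gm44502 on the same strand. The listed values of Cpt1b thus lay near the detection limit of 3 fragments in all 6 mice. Because of the shared exon bases, the level of Cpt1b itself is uncertain here.

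Cpt2, which rebuilds the acyl-CoA on the inner side, fell from 70.3 ± 7.34 to 38.6 ± 10.6 FPKM (mean ± SD, n = 3 per group), a log2 fold change of -0.88 (adjusted p = 0.0164). The translocase gene Slc25a20, which exchanges acylcarnitine for carnitine between those enzymes, averaged 78.7 FPKM in WT mice against 83.2 FPKM in Gm31629-/- mice, and its log2 fold change of 0.06 had a 95% interval of -0.44 to 0.55. Crat, which makes short acylcarnitines such as acetylcarnitine, averaged 13.3 and 12.2 FPKM, with an interval of -0.66 to 0.41. Both intervals leave room for changes of moderate size in either direction. After rescaling to the epithelial markers, Slc25a20 was higher by 0.65 (adjusted p = 0.0283), close to the median of all genes on that scale. Cpt2 differed by -0.30 (adjusted p = 0.241).

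Of the 4 acyl-CoA dehydrogenases, which differ in the chain length they accept, 2 were lower, with 1 of these calls, that of Acads, kept after the epithelial rescaling. Acads, the short-chain enzyme that acts on butyryl-CoA, was at 168, 178, and 193 FPKM in WT mice against 40.1, 22.6, and 47.6 FPKM in Gm31629-/- mice. Every Gm31629-/- mouse was far below every WT mouse, and the mean was 4.88-fold lower (log2 fold change -2.32 ± 0.27 SE, adjusted p = 0.000951). Acads was the most abundant member in WT mice by mean FPKM, and it is at chr5:115110299-115119346 on the minus strand (GRCm38). After rescaling to the epithelial markers, its log2 fold change was -1.73 (adjusted p = 0.000803), and it was -2.33 relative to the median of all genes on that scale.

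Acadl, the long-chain enzyme, was at 159, 148, and 162 FPKM in WT mice against 180, 157, and 142 FPKM in Gm31629-/- mice. The groups overlapped at nearly equal means, and the 95% interval of the log2 fold change, -0.32 to 0.37, does not reach the size of the change of Acads. With the epithelial rescaling Acadl was higher by 0.62 (adjusted p = 0.0186), close to the median of all genes. Acadvl, for very long chains, fell from 38.6 ± 2.89 to 19.9 ± 3.90 FPKM (log2 fold change -0.94, adjusted p = 0.00546), and 42.9% of its exon bases overlap Dvl2 on the opposite strand. Acadm, for medium chains, averaged 25.9 and 17.2 FPKM, a log2 fold change of -0.56 that did not pass the test (adjusted p = 0.0945) although the groups did not overlap. On the epithelial scale the values were -0.37 for Acadvl and 0.01 for Acadm, and neither passed.

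A ratio within a library does not depend on how that library was scaled. The Acads to Acadl ratio of FPKM values was 1.06, 1.203, and 1.19 in WT mice against 0.224, 0.144, and 0.335 in Gm31629-/- mice. Thus the transcript of the short-chain enzyme exceeded that of the long-chain enzyme in each WT mouse and was at a fraction of it in each Gm31629-/- mouse. The Acads to Acadvl ratio was 4.502 to 4.84 in WT mice and 1.43 to 2.02 in Gm31629-/- mice, and the Acads to Acadm ratio was 5.22 to 8.87 and 1.75 to 2.55, again with no overlap. These 3 ratios were chosen after the values had been seen and carry no test.

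The promoters of Acads and Acadl are shown because they belong to the dehydrogenase with the lowest log2 fold change and the one whose groups overlapped. Both are RefSeq windows on GRCm38.p6 from 250 bases before to 50 bases after the annotated start, written 5′ to 3′ on the gene's strand, with GC boxes (GGGCGG on either strand, so CCGCCC where reversed) in capitals. The Acads window is chr5:115119297-115119596 and the Acadl window is chr1:66863260-66863559, both on the minus strand.
Acads: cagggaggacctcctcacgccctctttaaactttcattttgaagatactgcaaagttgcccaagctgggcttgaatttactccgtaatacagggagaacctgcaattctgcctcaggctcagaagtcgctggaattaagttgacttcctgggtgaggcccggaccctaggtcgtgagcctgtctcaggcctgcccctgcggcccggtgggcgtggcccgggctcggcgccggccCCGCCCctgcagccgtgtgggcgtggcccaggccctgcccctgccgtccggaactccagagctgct
Acadl: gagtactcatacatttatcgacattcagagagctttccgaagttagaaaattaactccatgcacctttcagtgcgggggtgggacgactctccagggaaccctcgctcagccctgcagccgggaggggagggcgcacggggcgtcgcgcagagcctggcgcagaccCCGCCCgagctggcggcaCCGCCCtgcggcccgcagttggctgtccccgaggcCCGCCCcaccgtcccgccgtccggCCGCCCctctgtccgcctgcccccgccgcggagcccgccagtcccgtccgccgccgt
The Acads window held 1 GC box and 62.7% G and C, and the Acadl window held 4 GC boxes and 70.3% G and C. Windows were given for 26 of the 32 members, and 20 of these genes had a GC box, which is 74.1% of member windows, against 60.1% of windows of tested genes and 35.7% of all 32851 windows. The TATA box TATAAA was in 0 member windows, in 7.99% of windows of tested genes, and in 13.6% of all windows. A match is a description of these letters only.

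**Figure D2:**
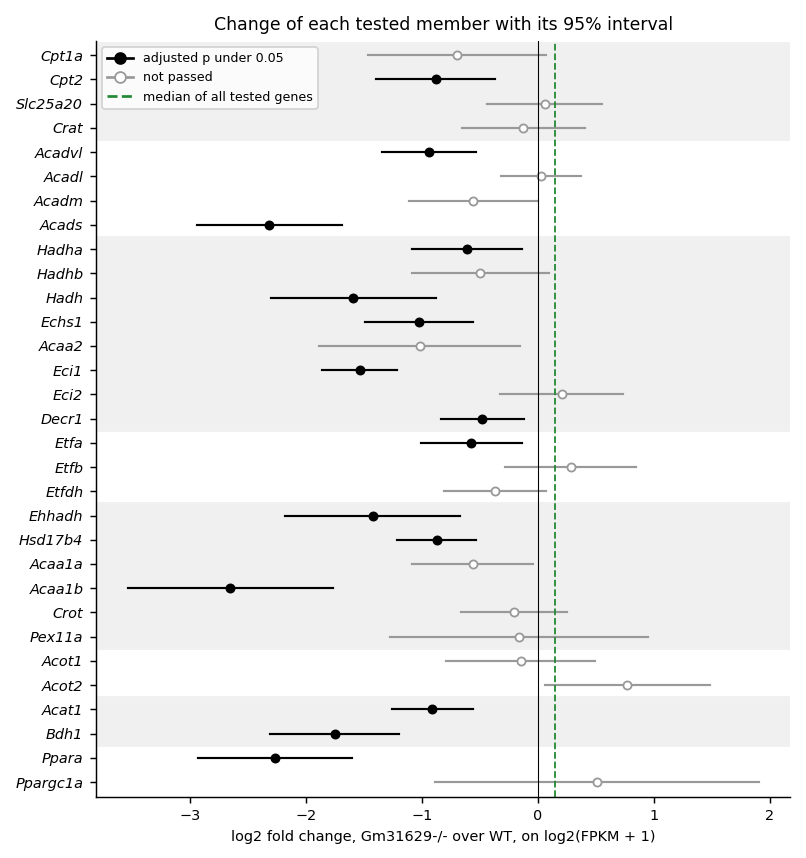
Log2 fold change of the 31 tested members (Gm31629-/- over WT, log2(FPKM + 1) scale, on the horizontal axis) with 95% intervals. Filled points passed an adjusted p of 0.05, open points did not, and the dashed line is the median of all tested genes at 0.15. All 15 filled points lie to the left of 0.

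The remaining reactions of the mitochondrial spiral are run by 8 members, of which 5 were lower, 3 of these past the fold threshold, with 0 higher. With the epithelial rescaling, Decr1 and Hadhb turned to 0.07, and lower calls remained for Hadh and Eci1. Eci2 was higher on that scale (0.69, adjusted p = 0.0441), close to the median of all genes. Hadha and Hadhb encode the subunits of the trifunctional protein, which completes the spiral for long chains. Hadha fell from 56.8 ± 4.83 to 37.5 ± 9.07 FPKM (log2 fold change -0.61, adjusted p = 0.0448). Hadhb averaged 27.9 and 20.3 FPKM, a log2 fold change of -0.50 with an interval of -1.09 to 0.09 (adjusted p = 0.147). The Hadha to Hadhb ratio was 1.92, 2.02, and 2.16 in WT mice against 1.77, 2.17, and 1.77 in Gm31629-/- mice. The balance between the subunit transcripts thus overlapped between genotypes (difference of -0.10 in the mean log2 ratio, exact permutation test, p = 0.4). With 3 mice against 3, an exact 2-sided test cannot go below 0.1.

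The promoter between these subunit genes is shown because their windows overlap. The annotated starts of Hadha and Hadhb lie 273 bases apart on opposite strands of chromosome 5, and their windows share 228 bases. The Hadhb window, chr5:30155003-30155302 on the plus strand, held 4 GC boxes (capitals).
Hadhb: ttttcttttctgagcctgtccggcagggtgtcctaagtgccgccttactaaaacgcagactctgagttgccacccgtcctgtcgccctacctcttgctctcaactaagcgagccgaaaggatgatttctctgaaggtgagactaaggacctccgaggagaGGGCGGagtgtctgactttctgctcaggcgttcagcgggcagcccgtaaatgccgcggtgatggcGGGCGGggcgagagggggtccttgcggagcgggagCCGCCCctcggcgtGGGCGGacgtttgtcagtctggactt

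For shorter chains, separate enzymes run these reactions. Hadh, the short-chain 3-hydroxyacyl-CoA dehydrogenase, was at 63.4, 72.4, and 74.2 FPKM in WT mice against 27.9, 13.2, and 30.6 FPKM in Gm31629-/- mice. The groups were well apart, with a mean 2.93-fold lower (log2 fold change -1.59 ± 0.30 SE, adjusted p = 0.00603) and a value of -1.02 on the epithelial scale (adjusted p = 0.0126). The Hadh to Hadha ratio was 1.21 to 1.25 in WT mice against 0.479 to 0.769 in Gm31629-/- mice, given without a test because it was chosen after the values had been seen. Echs1, the short-chain enoyl-CoA hydratase, was at 19.5, 17.8, and 21.9 FPKM in WT mice against 11.9, 7.12, and 8.93 FPKM in Gm31629-/- mice. The highest Gm31629-/- value was thus below the lowest WT value, with a log2 fold change of -1.03 (adjusted p = 0.00637), whereas the epithelial scale gave -0.48 (adjusted p = 0.0717).

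Acaa2, the mitochondrial thiolase of the last reaction, averaged 83.7 ± 14.1 FPKM in WT mice against 44.6 ± 25.0 FPKM in Gm31629-/- mice. The Gm31629-/- values spread from 24.5 to 72.5 FPKM, and mouse 1, the highest, overlapped the WT range, so the log2 fold change of -1.02 missed the threshold (adjusted p = 0.0591). Without Gm31629-/- mouse 1 it was -1.44 (adjusted p = 0.00475). That was the only 1 of the 6 fits leaving out a mouse in which Acaa2 passed, and the highest adjusted p among them was 0.165.

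Unsaturated fatty acids need isomerases and a reductase to move their double bonds. Eci1, the mitochondrial enoyl-CoA isomerase, was at 46.8, 44.7, and 54.2 FPKM in WT mice against 17.1, 15.2, and 15.7 FPKM in Gm31629-/- mice. The Gm31629-/- mice lay close together and far below the WT mice, 3.03-fold lower in the mean, with the lowest adjusted p of the panel (log2 fold change -1.54 ± 0.14 SE, adjusted p = 0.00043). Eci2, a related isomerase found in mitochondria and peroxisomes, averaged 4.35 FPKM in WT mice against 5.28 FPKM in Gm31629-/- mice, with an interval of -0.32 to 0.74. The Eci1 to Eci2 ratio went from 10.03 to 12.9 in WT mice to 2.37 to 3.95 in Gm31629-/- mice, again a ratio chosen after the values were seen. Decr1, the 2,4-dienoyl-CoA reductase, fell from 16.9 ± 1.66 to 11.9 ± 1.46 FPKM (log2 fold change -0.48, adjusted p = 0.0387).

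The electron transfer flavoprotein passes electrons from the dehydrogenases to ubiquinone. Of its 3 genes, 1 was lower as deposited and 0 after the epithelial rescaling. Etfa, the alpha subunit, fell from 58.2 ± 4.57 to 39.3 ± 9.12 FPKM (log2 fold change -0.58, adjusted p = 0.0402), while on the epithelial scale its value was 0.01. Etfdh, the membrane-bound oxidoreductase, averaged 9.85 and 7.52 FPKM, with an interval of -0.81 to 0.07. Etfb, the beta subunit, was listed at only 0.279 to 1.01 FPKM in WT mice against 0.466 to 1.17 FPKM in Gm31629-/- mice. These values rest on 6 to 25 fragments, and 58.2% of Etfb exon bases are shared with Gm45233 on the same strand, so the level of a subunit that pairs with Etfa is uncertain here and the Etfa to Etfb ratio (exact permutation test, p = 0.2) is not read further.

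Peroxisomal oxidation and export was represented by 6 genes, all with negative log2 fold changes as deposited, as had 6173 of the 14657 tested genes. By the test, 3 of the 6 were lower, beside 14.6% of all genes. Crot, Pex11a, and Acaa1a turned positive after the epithelial rescaling without passing. Ehhadh, the bifunctional enzyme of the classic PPARα-induced pathway, was at 18.1, 23.3, and 22.9 FPKM in WT mice against 10.4, 3.91, and 9.22 FPKM in Gm31629-/- mice. The groups did not overlap, and the log2 fold change was -1.43 ± 0.32 SE (adjusted p = 0.0114). Hsd17b4, the bifunctional enzyme for branched chains and bile acid precursors, fell from 28.6 ± 3.30 to 15.1 ± 1.01 FPKM (log2 fold change -0.87, adjusted p = 0.00357), although its value on the epithelial scale was -0.31 (adjusted p = 0.22).

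The peroxisomal thiolases Acaa1a and Acaa1b are close copies of each other, so reads could be split between them. Acaa1a was at 30.8, 31.96, and 32.1 FPKM in WT mice against 16.3, 19.2, and 30.0 FPKM in Gm31629-/- mice. Gm31629-/- mouse 3 was close to the WT mice, and the log2 fold change of -0.56 did not pass (adjusted p = 0.0778). Acaa1b was at 4.02, 12.8, and 10.3 FPKM in WT mice against 0.388, 0.773, and 0.277 FPKM in Gm31629-/- mice. All Gm31629-/- values were below 1 FPKM, on 10 to 28 fragments against 146 to 453 in WT mice, with a mean 18.9-fold lower and the lowest log2 fold change of the panel (-2.66 ± 0.38 SE, adjusted p = 0.002). The Acaa1b to Acaa1a ratio was 0.131 to 0.401 in WT mice against 0.009 to 0.040 in Gm31629-/- mice, a difference of -3.34 in the mean log2 ratio (exact permutation test, p = 0.1, the smallest possible, and 0.167 after adjustment over 5 ratios).

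Crot, which exports shortened chains as carnitine esters, averaged 5.72 and 4.82 FPKM, with an interval of -0.66 to 0.25. Pex11a, a peroxisome proliferation factor and PPARα target, averaged 12.2 ± 2.54 FPKM in WT mice against 12.8 ± 9.74 FPKM in Gm31629-/- mice. Its log2 fold change was -0.16, although its mean FPKM was the higher in Gm31629-/- mice, with an interval of -1.28 to 0.95. Gm31629-/- mouse 1 was at 23.7 FPKM and mouse 2 at 5.04 FPKM, so the WT range fell inside the range of the Gm31629-/- mice. Summed over members, the peroxisomal genes made up 8.62%, 9.42%, and 9.16% of the FPKM of the peroxisomal and mitochondrial members in WT mice. The shares in Gm31629-/- mice were 8.13%, 8.79%, and 9.10%. The ranges overlapped, and the difference of -0.390 percentage points was within 1 SD of the Gm31629-/- group (0.498).

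The acyl-CoA thioesterases Acot1 (cytosolic) and Acot2 (mitochondrial) release free fatty acids from CoA and are also close copies. Acot1 averaged 1.38 and 1.15 FPKM, with an interval of -0.79 to 0.50. Acot2 averaged 1.54 ± 0.53 FPKM in WT mice against 3.47 ± 1.51 FPKM in Gm31629-/- mice, the highest log2 fold change among the members at 0.77, with an interval of 0.06 to 1.48 (adjusted p = 0.0758). Its groups overlapped through Gm31629-/- mouse 2 at 1.78 FPKM, and without that mouse the value was 1.08 (adjusted p = 0.0128). That was the only 1 of the 6 fits leaving out a mouse in which Acot2 passed, and the highest adjusted p among them was 0.211. The fit is named here after its value had been seen. On the epithelial scale Acot2 was higher with all mice (1.16, adjusted p = 0.0108). The Acot1 to Acot2 ratio was 0.676 to 1.02 in WT mice against 0.198 to 0.444 in Gm31629-/- mice (exact permutation test, p = 0.1, adjusted 0.167).

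Both members of ketone metabolism were lower, although on the epithelial scale this held for Bdh1 and Acat1 differed by -0.34 (adjusted p = 0.129). Bdh1, the mitochondrial dehydrogenase that interconverts acetoacetate and β-hydroxybutyrate, was at 43.2, 40.6, and 50.6 FPKM in WT mice against 16.5, 8.57, and 13.8 FPKM in Gm31629-/- mice. The groups were far apart, with a mean 3.46-fold lower (log2 fold change -1.75 ± 0.24 SE, adjusted p = 0.0017). Acat1, the mitochondrial acetoacetyl-CoA thiolase, was at 33.7 to 38.8 FPKM in WT mice against 17.05 to 21.7 FPKM in Gm31629-/- mice (log2 fold change -0.91, adjusted p = 0.00333).

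The 11 ketone genes outside the panel included 6 that could be tested, of which 4 were lower and 1 was higher. Across all tested genes, 14.6% were lower and 28.9% higher. Among the ketone genes that were lower were Aacs, which activates acetoacetate in the cytosol, with a log2 fold change of -1.83, and Acat2, the cytosolic thiolase, at -1.35. The ketone gene that was higher was Oxct1, whose enzyme activates acetoacetate when ketone bodies are consumed. It was at 26.7 ± 3.603 FPKM in WT mice against 61.5 ± 15.4 FPKM in Gm31629-/- mice (1.15, adjusted p = 0.00608). Oxct1 falls outside the rule for naming genes and was named after its value had been seen, as the gene higher in its list.

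Of the regulators, Ppara, which encodes the receptor that induces much of this panel, was at 4.90, 9.57, and 7.82 FPKM in WT mice against 1.26, 0.367, and 0.596 FPKM in Gm31629-/- mice. The groups did not overlap, on 348 to 661 fragments in WT mice against 26 to 89 in Gm31629-/- mice. The mean was 10.03-fold lower (log2 fold change -2.27 ± 0.28 SE, adjusted p = 0.00126), and the epithelial scale gave -1.90 (adjusted p = 0.00156). Ppargc1a, the coactivator of mitochondrial biogenesis, was at 2.83, 3.15, and 1.61 FPKM in WT mice against 11.6, 1.12, and 3.48 FPKM in Gm31629-/- mice. The Gm31629-/- values spanned the WT range, and the log2 fold change went from 0.51 to -0.17 when Gm31629-/- mouse 1 was left out, with neither value passing.

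The Ppara promoter is shown because this was the regulator that fell. The RefSeq window on GRCm38.p6, chr15:85735526-85735825 on the plus strand, held 2 GC boxes (capitals) and 74.7% G and C.
Ppara: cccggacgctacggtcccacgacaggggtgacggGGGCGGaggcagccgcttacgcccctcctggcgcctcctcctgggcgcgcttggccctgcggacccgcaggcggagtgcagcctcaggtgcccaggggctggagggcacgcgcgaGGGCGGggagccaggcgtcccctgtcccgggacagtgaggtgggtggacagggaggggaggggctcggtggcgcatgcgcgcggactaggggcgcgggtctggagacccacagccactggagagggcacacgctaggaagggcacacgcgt
Nuclear receptors of the PPAR class bind direct repeats of AGGTCA spaced by 1 base. The repeat AGGTCANAGGTCA, searched on both strands, was in 0 of the 26 member genes with a window, in 0.0454% of windows of tested genes, and in 0.0396% of all windows. The single half-site AGGTCA, which also lies within that repeat, was in the windows of 4 members (Acadm, Echs1, Acadvl, and Cpt1a), in 12.9% of windows of tested genes, and in 16.3% of all windows. The core GCGCATGCG of the respiratory factor NRF1 was in the windows of Etfdh, Acadm, and Ppara, in 3.25% of windows of tested genes, and in 1.75% of all windows. The HNF4 core CAAAGTCCA was in 0 member windows, in 0.492% of windows of tested genes, and in 0.475% of all windows. The absence of a match says only that these letters are not in these windows.

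Among the receptors and coactivators outside the panel, 14 were tested. As deposited, 4 were lower, 1 was higher, and 9 did not pass, where 14.6% of all genes were lower and 28.9% higher. Pparg, a receptor with high levels in colonic epithelium, fell from 64.3 ± 2.62 to 13.3 ± 4.90 FPKM (log2 fold change -2.24, adjusted p = 0.000657), and Hnf4a, an epithelial transcription factor, fell by 1.203 on the log2 scale, from 295 ± 16.7 to 129 ± 26.3 FPKM. Gabpa, an ETS factor that acts on mitochondrial genes, was higher by 1.22. All 3 directions held after the epithelial rescaling, where the log2 fold changes were -1.67, -0.61, and 1.67.

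Of 12 tested PPAR target genes outside the panel, 3 were lower and 5 were higher, and over all genes, too, fewer were lower (14.6%) than higher (28.9%). Vnn1, a pantetheinase gene, was lower by 6.78-fold in the mean (log2 fold change -2.21), whereas Angptl4, an inhibitor of lipoprotein lipase, was higher (3.19), as was Fabp4, the adipocyte fatty acid-binding protein (4.16, adjusted p = 0.000327). Fabp4 is at the same time an adipocyte marker, as is Cidec, which stands in both lists. The 12 adipocyte markers summed to 42.1 to 98.2 FPKM in WT mice against 216 to 652 FPKM in Gm31629-/- mice, with 8 of 11 tested higher. The part of fat tissue in the levels of these targets was not tested.

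**Figure D3:**
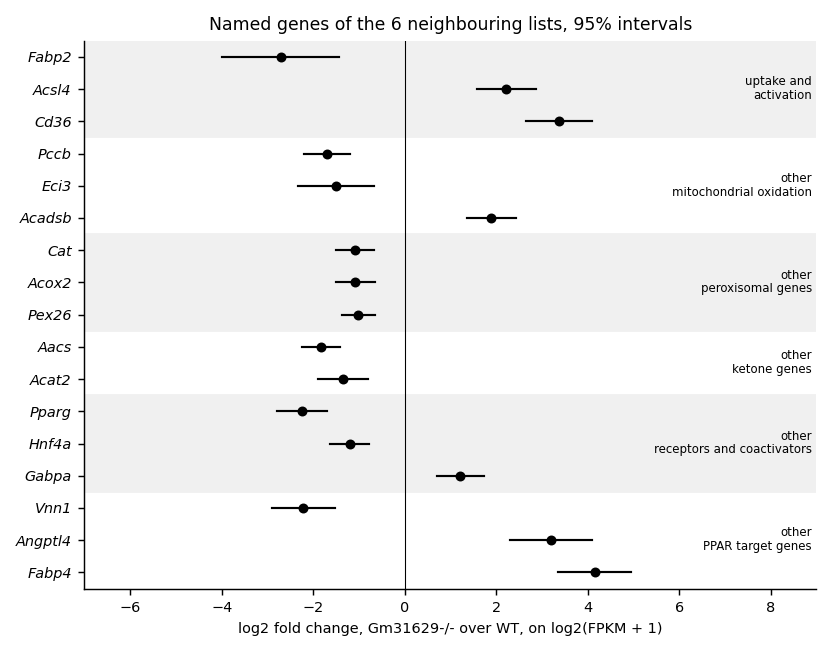
Log2 fold change (Gm31629-/- over WT, log2(FPKM + 1) scale, horizontal axis) with 95% intervals for the genes named from the 6 lists that surround the panel. Fabp2 lies lowest at -2.71, and Fabp4, Cd36, and Angptl4 lie highest at 4.16, 3.37, and 3.19.

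Uptake and activation of fatty acids, the steps before the carnitine shuttle, held 10 tested genes, of which 2 were lower and 2 were higher, in a table where 14.6% of all genes were lower and 28.9% higher. Cd36, a fatty acid translocase found on macrophages, fat, and endothelium as well, was at 0.060, 0.248, and 0.193 FPKM in WT mice against 9.23, 18.7, and 7.61 FPKM in Gm31629-/- mice. Fabp2, the intestinal fatty acid-binding protein, was at 59.0 to 78.2 FPKM in WT mice against 4.998 to 26.8 FPKM in Gm31629-/- mice. Thus the transcript of the epithelial carrier was lower (log2 fold change -2.71) and that of the translocase higher (3.37). Acsl4, an acyl-CoA synthetase that prefers arachidonate, was higher by 2.22. Macrophage markers, which summed to 43.9 to 54.2 FPKM in WT mice, summed to 335 to 676 FPKM in Gm31629-/- mice with 9 of 10 higher, and their part in these values was not tested.

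Among 18 other genes of mitochondrial oxidation, 10 were lower and 2 were higher, as deposited, where 14.6% of all genes were lower and 28.9% higher. The largest changes were in Acadsb (1.89), the dehydrogenase for short branched chains, Pccb (-1.70), a subunit of propionyl-CoA carboxylase, and Eci3 (-1.49), another enoyl-CoA isomerase. Acadsb therefore moved opposite to its straight-chain relative Acads. Among 29 other peroxisomal genes, 6 were lower and 1 was higher, beside the same 14.6% and 28.9% of all genes. Those named were Cat, the catalase that removes peroxisomal hydrogen peroxide (-1.08), Acox2, an oxidase for branched chains (-1.08), and Pex26, an import receptor anchor (-1.01), but 22 of the 29 did not pass. Over the 6 lists together, 29 of 89 tested genes were lower and 12 were higher, again beside 14.6% and 28.9% of all genes. Their median log2 fold change was -0.33, against 0.15 over all tested genes. With the epithelial rescaling 14 were lower and 22 were higher, where 3.56% of all genes were lower and 47.7% higher.

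A list of 24 genes for the mitochondrion in general (import channels, chaperones, membrane structure, and carriers, none of them in fatty acid oxidation) was set beside the panel. Of these, 12 were lower and 0 higher as deposited, where 14.6% of all genes were lower and 28.9% higher. Their median log2 fold change was -0.57, about that of the panel, against 0.15 over all tested genes. This list is given on the deposited scale only. The summed level of its 24 genes was 1756 to 2003 FPKM in WT mice against 997 to 1496 FPKM in Gm31629-/- mice. The 32 members summed to 1166, 1336, and 1364 FPKM in WT mice against 930, 592, and 788 FPKM in Gm31629-/- mice. The medians of the panel and of this list thus lay close together, while Acads, Hadh, Eci1, Bdh1, Ppara, and Acaa1b had log2 fold changes below the lowest of that list (-1.44).

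**Figure D4:**
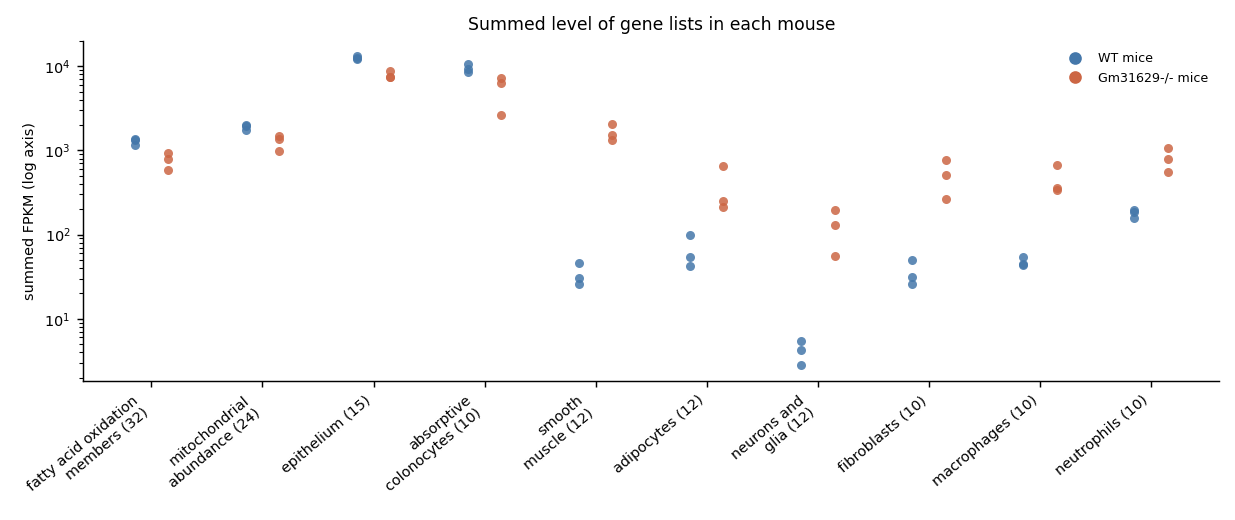
Summed FPKM (log axis) of the 32 members and of marker lists in each mouse, with 3 WT mice in blue and 3 Gm31629-/- mice in orange; the number of genes in a list is in parentheses. The sums of the members, the mitochondrial list, and the epithelial and colonocyte markers are lower in Gm31629-/- mice. Those of the smooth muscle, fat, neural, fibroblast, and immune markers are higher. Single genes of a list can differ from its sum.

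Markers of the other cell types were mostly higher in Gm31629-/- mice, except those of absorptive colonocytes. The counts below stand beside 14.6% of all tested genes lower and 28.9% higher. Absorptive colonocyte markers summed to 8575 to 10730 FPKM in WT mice against 2621 to 7282 FPKM in Gm31629-/- mice, with 4 of 10 lower and 1 higher. This list was split, with 6 negative and 4 positive log2 fold changes. Ceacam20 was higher (0.59, adjusted p = 0.0356), and Car4 (1.31), Aqp8 (1.02), and Slc26a3 (1.02) were positive without passing. Car1, the most abundant, averaged 4692 FPKM in WT mice against 1249 FPKM in Gm31629-/- mice. These genes were named after their values had been seen. All 10 fibroblast markers were higher (25.8 to 50.01 against 265 to 761 FPKM), as were 10 of 11 neuronal and glial markers (2.82 to 5.43 against 56.0 to 195 FPKM) and 9 of 10 neutrophil markers (159 to 197 against 547 to 1080 FPKM). The remaining neutrophil marker, Cd177, was lower (log2 fold change -1.61, adjusted p = 0.00315) and was named after its value had been seen. The neuronal marker Elavl4 was listed at 0 in all WT mice. Skeletal muscle markers were mostly at or near 0, with Myh1 and Myh2 listed at 0 in all WT mice and 1 of 3 tested higher.

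**Figure D5:**
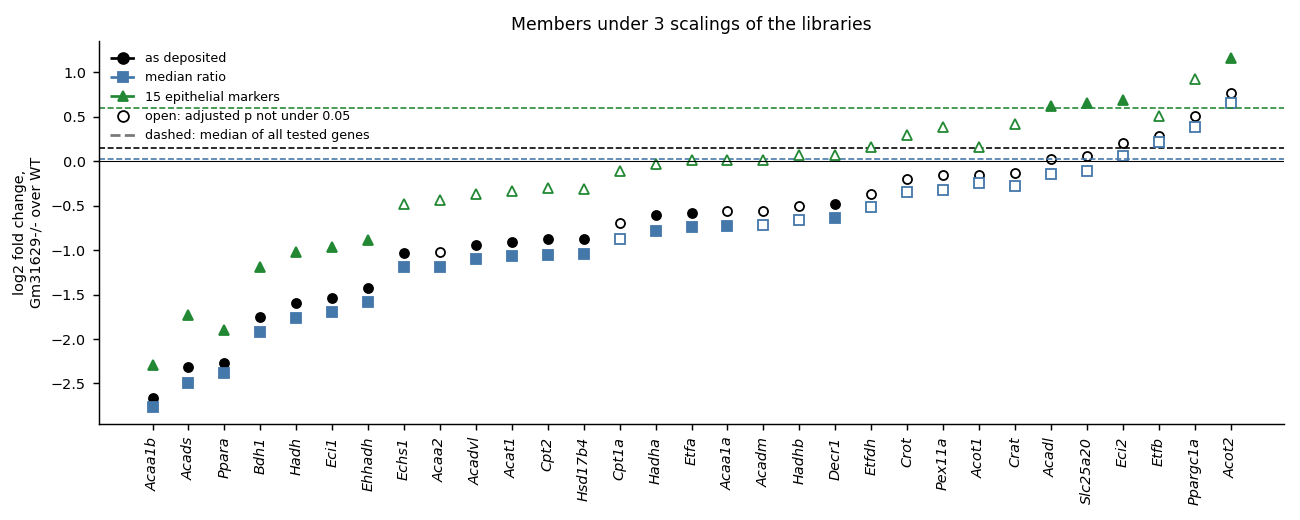
Log2 fold change of each tested member (vertical axis, Gm31629-/- over WT) under 3 scalings of the libraries: as deposited (black circles), by the median ratio over genes (blue squares), and by 15 epithelial markers (green triangles). Open symbols did not pass an adjusted p of 0.05, and dashed lines are the medians of all tested genes, at 0.15, 0.02, and 0.60. The 7 genes at the left stay below 0 and filled under all 3 scalings.

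The mice within a group differed, too. Across the 31 tested members, the highest mouse of a group was a median of 1.26-fold above the lowest in WT mice against 1.81-fold in Gm31629-/- mice. Gm31629-/- mouse 2 had the lowest of the 3 values in 24 members and Gm31629-/- mouse 1 the highest in 21. Mouse 2 also had the lowest sum of absorptive colonocyte markers (2621 FPKM) and the highest of fibroblast, adipocyte, and macrophage markers (761, 652, and 676 FPKM). Other lists ranked the mice differently. The epithelial sum was lowest in mouse 1 (7361 FPKM, against 7504 in mouse 2 and 8903 in mouse 3). Smooth muscle markers were highest in mouse 1 (2078 FPKM, against 1544 in mouse 2 and 1342 in mouse 3). The part of makeup in the differences between these mice was not tested. Without mouse 2, 12 members were lower, and Acot2 was higher, where 13.5% of all genes were lower and 26.1% higher. On the deposited scale, the one on which mice were left out, the 7 members lower on both scales stayed lower without any single mouse, as did Acadvl, Hsd17b4, Echs1, and Acat1. The highest adjusted p in those fits was 0.0491, for Ehhadh.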

How the data were processed

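RNA-Seq libraries were made from the distal colon of 3 Gm31629-/- and 3 WT mice (E.Z.N.A. Total RNA Kit, TruSeq RNA Sample Prep Kit), and samples were grouped by the genotype in their labels. The authors deposited FPKM values, 1 column per library, which divide fragments by gene length and library depth. The submitters' processing notes name HISAT2 2.1.0, HTSeq 0.6.0, and GRCm38, and the annotation release is not given in the sources used here. The methods describe RNA pooled from 3 mice per genotype, but each library was taken here as a separate mouse. P-values thus measure the spread between these libraries.

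Symbols, exon lengths, and overlaps came from GENCODE M21 (GRCm38), which matched 27488 of 27546 identifiers. Fragments were recovered from the FPKM steps, and 96.3% to 97.2% of values of 20 fragments or fewer came within 0.1 of whole. A value of 0 allows up to 3 fragments, for counting error only.

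Genes with a mean of at least 0.5 FPKM were tested on log2(FPKM + 1) by a linear model in limma 3.58.1 (R 4.3.3), with a mean-variance trend in eBayes, 2-sided, with Benjamini-Hochberg adjustment over 14657 genes. Fold changes on that scale understate the change of low genes. Log2 ratios of 2 members used FPKM + 0.1 and an exact permutation test (scipy 1.17.1). RefSeq promoter windows (GRCm38.p6) were searched on both strands. The scripts were tested on simulated data. Alternatives were a smaller pseudocount (0.1), a filter at a mean FPKM of 5 or none, rescaling to the same sum, by the median ratio, or to 15 epithelial markers, eBayes without a trend, a replicate block, voom on recovered fragments, and leaving out each mouse.

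The members and gene lists were chosen with earlier results of these data known. All 32 members are named, with the value of each mouse for those past the fold threshold and for Cpt1a, Cpt1b, Acaa1a, Acaa1b, Bdh1, Ppara, and Ppargc1a. From each of the 6 surrounding pathway lists at most 3 genes with the largest change among those that passed are named, except a gene that is not reported here. Acot3, Cyp4a14, and Myh4 were not analysed here.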

Additional observations from a re-analysis of the deposited data

How the results depend on the processing

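With 3 mice per group, moderate changes of single members can be missed, and the exact tests of ratios cannot fall below 0.1. The 15 lower members became 13 with no filter, 17 with the median ratio, and 11 to 15 when 1 mouse was left out (11 without WT mouse 3). Members lower past the fold threshold were 13 with the median ratio, against 8, and 7 to 10 when 1 mouse was left out. The median ratio also moved the split of all genes to 21.0% lower and 26.1% higher. Rescaling to the epithelial markers gave 7 lower and 4 higher members, 5 and 1 of them past the fold threshold, a member median of 0.006, and 14 lower and 22 higher genes in the surrounding lists, where 3.56% of all genes were lower and 47.7% higher. On that scale Decr1 reversed to 0.07 and Etfa to 0.01. Of the 15 markers used for it, 8 were themselves lower in Gm31629-/- mice and 0 were higher, which lifts every gene by construction. Raising the filter to a mean FPKM of 5 left 6 higher genes in the surrounding lists, against 12, with fewer genes tested. Leaving out 1 mouse gave 0 to 1 higher members by either rule, the 1 being Acot2 without Gm31629-/- mouse 2. The member median ranged from -0.753 to -0.438 in those fits, and the difference in the peroxisomal share from -0.613 to -0.117 percentage points. Replicate numbers did not pair the mice (correlations of deviations 0.036, -0.108, and 0.014), and with the number as a block 12 members were lower, without Hadha, Decr1, and Etfa. Of the values of single genes and ratios under the alternatives, 716 stayed on the same side of the threshold, 31 no longer passed, 9 newly passed, and the 2 above reversed. A further 19 values that had not passed changed sign.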
